A study of Mus musculus with 7 samples.

Results

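The TAM receptors and the machinery of apoptotic cell uptake were followed through 9 genes in bone marrow-derived dendritic cells (BMDCs) sorted as mature or immature. The genes were taken by symbol: the receptor tyrosine kinases Axl, Mertk and Tyro3, the bridging molecules Gas6, Pros1 and Mfge8, the phosphatidylserine receptor Timd4, and the engulfment genes Elmo1 and Dock1. All 9 were among the 28666 genes of the deposited table, and 8 had enough counts to be tested. In mature libraries, Axl, Mertk and Pros1 were lower and Elmo1 was higher by at least 2-fold, Gas6 lay next to that limit, and Tyro3, Mfge8 and Dock1 were lower by less. Timd4 was close to 0 counts in every library.

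BMDCs are cells grown from mouse marrow in GM-CSF and IL-4, here for 7 days from female C57BL/6 mice aged 6 to 8 weeks. The study placed them across a Transwell from MC38 cells, a mouse colon carcinoma line, with the glutamine antagonist DON (5 µM) in medium with 2 mM glutamine, or with its solvent DMSO in medium with 0.6 mM glutamine. Mature and immature cells were then separated by flow cytometry and their RNA was sequenced in bulk. The study's text places this sort after 24 h of DON, while its description of the sorting scheme names DMSO or DON. The labels give the stage of each library (3 immature, 4 mature) but neither its treatment nor the sorting markers, nor whether the libraries came from separate mice or cultures. The p-values therefore measure the spread between these libraries, which may be technical. Immature and mature cells came from GM-CSF cultures, which are known to hold macrophage-like as well as dendritic cells.

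A dying cell exposes phosphatidylserine on its surface. Gas6 and Pros1 bind this lipid through a vitamin K-dependent domain and switch on TAM kinases, which drive engulfment and restrain inflammatory signaling in macrophages and dendritic cells. Mfge8 links the same lipid to the integrins alpha-v beta-3 and alpha-v beta-5, and Timd4 binds it directly. Inside the phagocyte, the scaffold Elmo1 and the exchange factor Dock1 together activate the GTPase Rac, which remodels actin around the corpse.

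The 250 bases before the RefSeq start site (GRCm38.p6) are shown for 3 genes: the receptors with the largest falls, Axl and Mertk, and Elmo1, the member that rose. Each reads 5′ to 3′ on the strand of the gene, and capitals mark matches, on either strand, to the Sp1 box GGGCGG and the PU.1 core GAGGAA. The Axl window lies at chr7:25788734-25788983 (minus strand), the Mertk window at chr2:128698665-128698914 (plus strand) and the Elmo1 window at chr13:20090257-20090506 (plus strand).
Axl: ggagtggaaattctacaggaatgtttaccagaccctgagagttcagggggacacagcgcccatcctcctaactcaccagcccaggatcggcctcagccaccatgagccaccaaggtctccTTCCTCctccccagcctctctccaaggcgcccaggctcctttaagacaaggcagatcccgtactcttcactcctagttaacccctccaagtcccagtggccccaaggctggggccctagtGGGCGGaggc
Mertk: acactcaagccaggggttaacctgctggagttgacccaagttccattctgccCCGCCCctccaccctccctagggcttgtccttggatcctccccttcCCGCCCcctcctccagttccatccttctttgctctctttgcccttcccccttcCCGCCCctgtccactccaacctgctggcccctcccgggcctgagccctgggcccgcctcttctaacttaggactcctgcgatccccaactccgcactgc
Elmo1: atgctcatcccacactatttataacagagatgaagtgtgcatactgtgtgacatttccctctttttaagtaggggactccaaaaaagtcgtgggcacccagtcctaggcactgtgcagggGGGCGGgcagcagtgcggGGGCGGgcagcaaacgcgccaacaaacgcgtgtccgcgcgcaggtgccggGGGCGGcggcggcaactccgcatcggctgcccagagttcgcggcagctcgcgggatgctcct

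The Axl window holds 1 Sp1 box and 1 PU.1 core, and the Mertk and Elmo1 windows hold 3 Sp1 boxes each. The number of CG dinucleotides was 5 in Axl, 7 in Mertk and 21 in Elmo1, against a median of 6 over the 32851 upstream windows of RefSeq. Among the other members it was 29 in Dock1, 24 in Tyro3, 15 in Pros1, 12 in Mfge8, 10 in Gas6 and 4 in Timd4. GC content was 60.0% for Axl, 63.6% for Mertk and 61.6% for Elmo1, against a median of 52.4%. Sp1 boxes were present in 32.7% of all windows and in those of every member but Timd4. The PU.1 core was present in 23.3% of all windows and in those of Axl, Mfge8 and Dock1. Neither the AP-1 site TGANTCA (6.75% of windows) nor the E-box CACGTG (6.02%) was found in a member's window. Elmo1 has a second RefSeq start, at whose 250 upstream bases none of these letters were found. These matches are letters in a window, and binding was not measured. The bases after the starts of the 3 printed windows were not found whole in a GENCODE M21 transcript of the gene. Those after the second Elmo1 start were.

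Total counts ran from 54846746 to 67973086 per library, and the tested members had between 276 and 63577 counts in each. Levels are given as CPM, edgeR's count of a gene scaled to the library total after TMM normalization, changes as edgeR log2 fold changes of mature over immature with their standard error (SE), and p-values are adjusted over all 17461 tested genes. A gene passed both criteria of the study when its adjusted p was under 0.05 and its log2 fold change was at least 1 in size. Mature and immature cells differed widely: 23.1% of all tested genes passed both criteria, 13.2% as higher and 9.95% as lower in mature cells. The adjusted p alone was met by 46.1% of genes (23.2% higher, 22.9% lower), and the CPM of the groups did not overlap for 52.1% (25.4% higher, 26.7% lower).

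Against that background, 4 of the 8 tested members passed both criteria, 3 lower and 1 higher. All 8 had an adjusted p under 0.05 and groups that did not overlap, 7 of them lower in mature cells. The median log2 fold change of the 8 was -0.79, and that of all tested genes was 0.055. In bulk RNA, fewer cells of a type and less RNA per cell cannot be told apart, which holds for every value that follows.

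**Figure D1:**
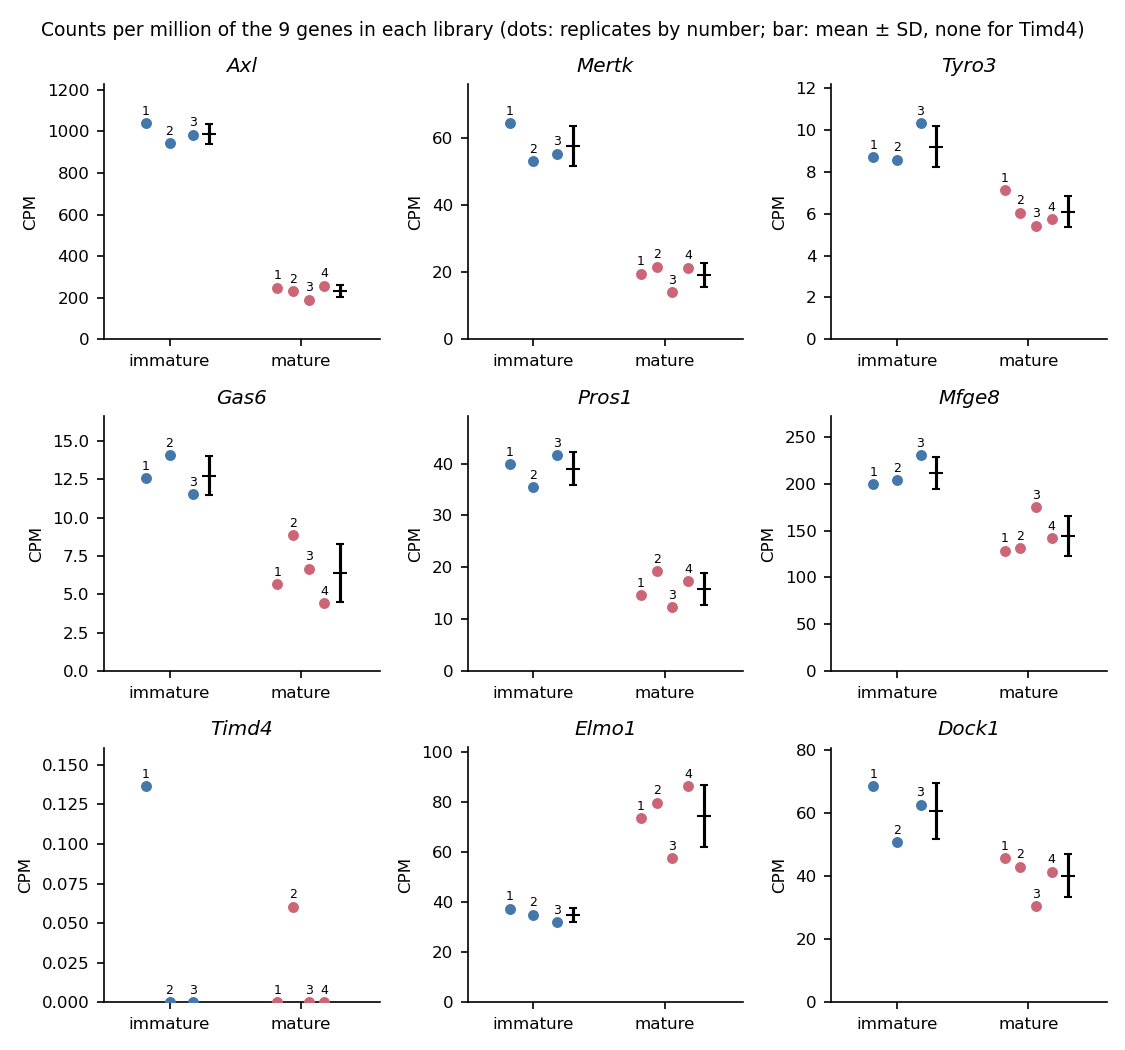
CPM (vertical axis, from 0) of each of the 9 genes in the immature (blue) and mature (red) libraries. Dots are libraries numbered by replicate, and bars are the mean ± SD of 3 immature or 4 mature libraries, left out for Timd4. The groups are separate for all genes but Timd4, and mature replicate 3 is the lowest mature library for Axl, Mertk, Tyro3, Pros1, Elmo1 and Dock1.

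Axl (ENSMUSG00000002602; chr7:25757273-25788705, minus strand, coordinates of the table, which match GRCm38) encodes the TAM kinase that is activated by Gas6 alone and not by Pros1. Its CPM was 1039, 943 and 985 in immature replicates 1 to 3, and 248, 233, 192 and 258 in mature replicates 1 to 4. Every mature library was far below every immature one. The means were 989 ± 47.8 (SD, n = 3) and 233 ± 29.3 (SD, n = 4), 4.25-fold lower in mature cells (log2 fold change -2.09, SE 0.11, edgeR adjusted p = 1.57e-06).

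Mertk (ENSMUSG00000014361; chr2:128698956-128802894, plus strand) encodes the TAM kinase best known for corpse uptake by macrophages. Immature replicates 1 to 3 had 64.4, 53.1 and 55.4 CPM, and mature replicates 1 to 4 had 19.6, 21.7, 14.1 and 21.4 CPM. The highest mature library was again below the lowest immature one. Mertk fell by 1.58 on the log2 scale (SE 0.15, edgeR adjusted p = 5.09e-05), a 3.00-fold difference.

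Tyro3 (ENSMUSG00000027298; chr2:119797733-119818104, plus strand), the remaining TAM kinase and the one most used in the nervous system, was the least expressed of the receptors. It had 8.69, 8.57 and 10.3 CPM in immature and 7.12, 6.05, 5.43 and 5.73 CPM in mature libraries. The groups lay close to each other without overlap. The log2 fold change was -0.60 (SE 0.15, edgeR adjusted p = 0.0102), which missed the fold criterion. Tyro3 also missed an adjusted p of 0.05 without immature replicate 3 (log2 fold change -0.51, edgeR adjusted p = 0.0539).

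Per transcript length, in the authors' FPKM, Axl made up most of the TAM receptor RNA in both groups. The summed FPKM of the 3 receptors was 180 to 197 in immature and 37.3 to 54.5 in mature libraries. Axl accounted for 92.7 to 93.2% of that sum in immature and 88.6 to 90.2% in mature libraries, Mertk for 6.07 to 6.67% and 7.73 to 9.54%, and Tyro3 for 0.629 to 0.790% and 1.61 to 2.09%. The FPKM ratio of Axl to Mertk was 13.9, 15.3 and 15.3 in immature libraries (14.8 ± 0.824, SD, n = 3) and 10.9, 9.28, 11.7 and 10.4 in mature libraries (10.6 ± 1.00, SD, n = 4). The ratio was thus lower in each mature library, as a description without a test.

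Of the bridging molecules, Pros1 (ENSMUSG00000022912; chr16:62854307-62929346, plus strand), protein S, which activates Mertk and Tyro3, passed both criteria. It had 39.9, 35.5 and 41.7 CPM in immature and 14.6, 19.2, 12.3 and 17.3 CPM in mature libraries. These groups were well apart, with means of 39.0 ± 3.20 (SD, n = 3) and 15.9 ± 3.05 (SD, n = 4). Pros1 fell by 1.30 on the log2 scale (SE 0.15, edgeR adjusted p = 0.000163), 2.46-fold.

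Gas6 (ENSMUSG00000031451; chr8:13465374-13494490, minus strand) encodes the ligand shared by the TAM receptors. Its levels were 12.6, 14.1 and 11.5 CPM in immature and 5.67, 8.84, 6.68 and 4.41 CPM in mature libraries. Mature replicate 2 was the nearest to the immature group, still below it. The log2 fold change of -0.99 (SE 0.22, edgeR adjusted p = 0.00620) fell just short of the fold criterion. It met that criterion without immature replicate 1 (-1.01), without immature replicate 3 (-1.06) and without mature replicate 2 (-1.18). Tmem255b overlaps Gas6 on the opposite strand and had at most 0.04 FPKM in any library.

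Mfge8 (ENSMUSG00000030605; chr7:79133768-79149053, minus strand), or lactadherin, the integrin bridge had the smallest log2 fold change of the bridging genes. It had 200, 204 and 231 CPM in immature and 129, 131, 175 and 142 CPM in mature libraries. Mature replicate 3 was here the highest of its group, while it was the lowest in 6 of the other tested members. The log2 fold change was -0.55 (SE 0.12, edgeR adjusted p = 0.00532), short of the fold criterion.

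The summed FPKM of Gas6, Pros1 and Mfge8 was 50.7 to 54.7 in immature and 32.0 to 37.9 in mature libraries, and Mfge8 made up 74.3 to 77.0% and 77.4 to 86.9% of it. With the unequal changes of Mfge8 and Axl, their FPKM ratio was 0.206 to 0.251 in immature and 0.556 to 0.978 in mature libraries. The highest of these was mature replicate 3, without which the mature range was 0.556 to 0.602. The ratio of Pros1 to Gas6 overlapped between the groups, at 1.57 to 2.25 and 1.15 to 2.45. These ratios describe the libraries and were not tested.

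Timd4 (ENSMUSG00000055546; chr11:46810800-46844332, plus strand), also called TIM-4, is a phosphatidylserine receptor of resident macrophages. It had 8 counts in immature replicate 1, 4 counts in mature replicate 2 and 0 counts in the other 5 libraries. A count of 0 allows up to 3 counts by counting error alone. No difference was detectable at this depth, and no fold was computed.

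Elmo1 (ENSMUSG00000041112; chr13:20090596-20608353, plus strand) was the only tested member that was higher in mature cells. It had 37.5, 35.0 and 32.2 CPM in immature and 73.7, 79.8, 57.5 and 86.3 CPM in mature libraries. Even the lowest mature library, replicate 3, exceeded all immature ones. Elmo1 rose by 1.09 on the log2 scale (SE 0.14, edgeR adjusted p = 0.000287), 2.13-fold. Its direction held in all 18 alternatives, but the fold criterion was missed with limma on log2(FPKM + 1), at 0.93, and with an offset for transcript length, at 0.91. The antisense gene Gm32036 within Elmo1 had at most 0.02 FPKM.

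Dock1 (ENSMUSG00000058325; chr7:134670654-135023927, plus strand), the exchange factor that pairs with Elmo proteins, went the other way. Immature libraries had 68.4, 50.8 and 62.7 CPM and mature libraries had 45.7, 43.0, 30.4 and 41.4 CPM. The gap between the groups was small next to their spread. Dock1 had a log2 fold change of -0.59 (SE 0.16, edgeR adjusted p = 0.0132), short of the fold criterion. Its adjusted p was 0.0648 without immature replicate 1 and 0.0505 without immature replicate 3. The antisense gene Insyn2a within Dock1 had at most 0.02 FPKM.

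**Figure D2:**
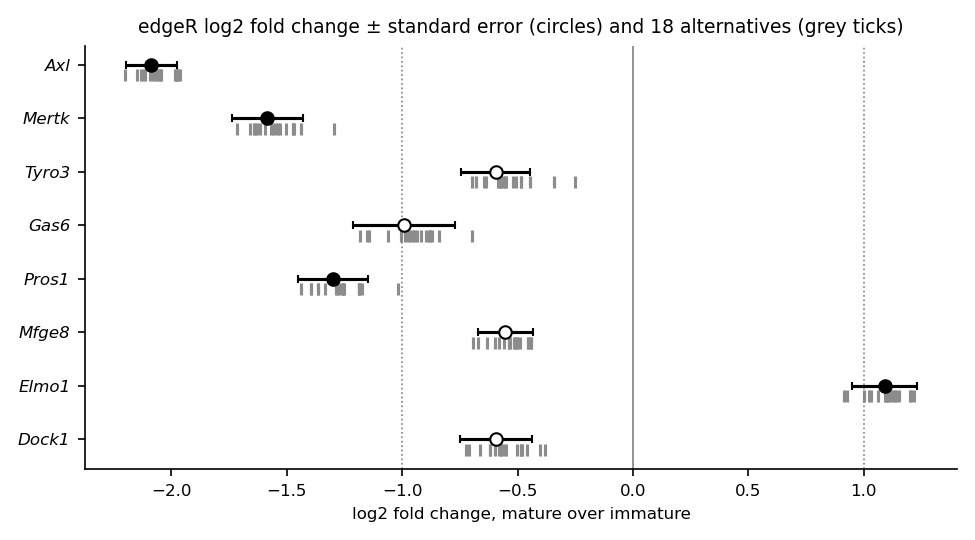
edgeR log2 fold change of mature over immature (horizontal axis) for the 8 tested genes, as circles with bars of 1 standard error, filled where both criteria were passed. Grey ticks are the 18 alternatives, and dotted lines mark a log2 fold change of 1 in either direction. Axl, Mertk and Pros1 lie beyond the lower line in every alternative, Gas6 straddles it, and only Elmo1 lies above 0.

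Compared with each other per length, the members spanned a wide range. In immature cells the order of mean FPKM was Axl (173), Mfge8 (39.5), Mertk (11.7), Pros1 (8.38), Dock1 (5.70), Gas6 (4.40), Elmo1 (2.44), Tyro3 (1.30) and then Timd4. Only Dock1 and Gas6 among neighbours overlapped in their libraries. In mature cells Axl (44.0) and Mfge8 (28.9) still led, followed by Elmo1 (5.62), Mertk (4.22), Dock1 (4.10), Pros1 (3.69), Gas6 (2.38), Tyro3 (0.93) and Timd4. From Elmo1 down to Gas6, the ranges of neighbours overlapped across libraries. Within each mature library, however, Elmo1 was above Mertk, Mertk above Pros1, and Pros1 above Gas6. Dock1 changed places with Mertk and with Pros1 between libraries, so its place was not resolved. Elmo1 moved from the seventh place to the third.

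**Figure D3:**
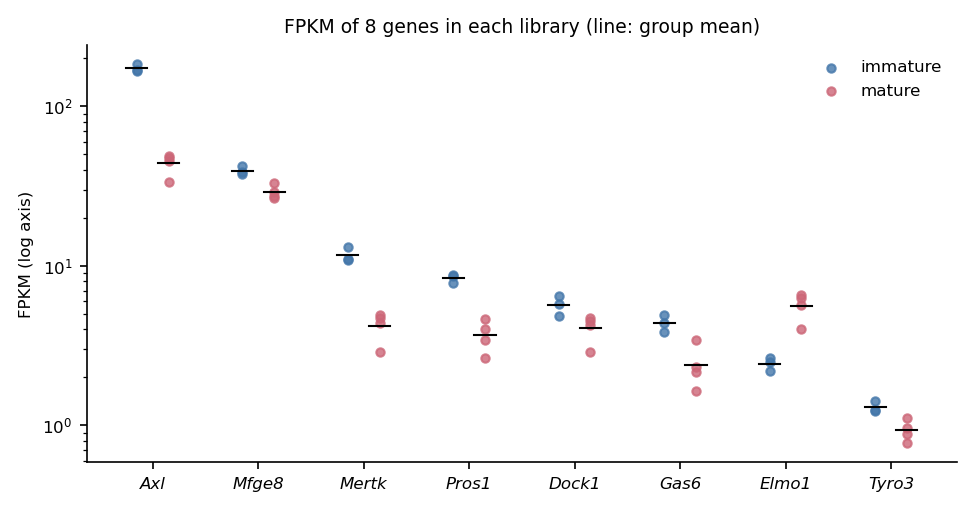
FPKM (logarithmic vertical axis) of the 8 tested genes in each immature (blue) and mature (red) library, ordered by the immature mean, with a line at each group mean. Axl and Mfge8 lead in both groups, with Axl going from 173 to 44.0 FPKM on average, and Elmo1 alone is higher in the mature libraries.

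The relatives of Elmo1 and Dock1 and the integrin partners of Mfge8 were looked at for their known roles, after their values were seen. Elmo2 fell by 1.28 on the log2 scale (SE 0.09, edgeR adjusted p = 6.79e-06), from 19.8 to 22.5 FPKM in immature to 7.86 to 10.2 FPKM in mature libraries, and Elmo3 rose by 1.11 (SE 0.16, edgeR adjusted p = 0.000579), from 0.783 to 1.82 FPKM. As Elmo2 was the most abundant, the summed FPKM of the Elmo genes was lower in mature libraries, at 13.9 to 18.6 against 22.8 to 25.9. The share of Elmo1 in that sum was 9.61 to 10.4% in immature and 29.2 to 35.1% in mature libraries.

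Dock2, the Rac activator of leukocytes, was far more abundant than Dock1, at 38.4 FPKM in immature and 38.8 FPKM in mature cells on average. Its log2 fold change of -0.10 (SE 0.16, edgeR adjusted p = 0.632) did not pass the test. Dock5, which also pairs with Elmo proteins, fell by 2.30 (SE 0.23, edgeR adjusted p = 5.57e-05). The ratio of Elmo1 to Dock1 in FPKM was 0.382 to 0.511 in immature and 1.20 to 1.55 in mature libraries. Rac1, a GTPase on which these proteins act, had a log2 fold change of 0.011 (SE 0.079, edgeR adjusted p = 0.922). The related gene Rac2 was more abundant, at 158 FPKM in immature and 131 FPKM in mature cells, against 97.8 and 106 FPKM for Rac1. Rac2 had a log2 fold change of -0.37 (SE 0.084, edgeR adjusted p = 0.00638), short of the fold criterion.

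**Figure D4:**
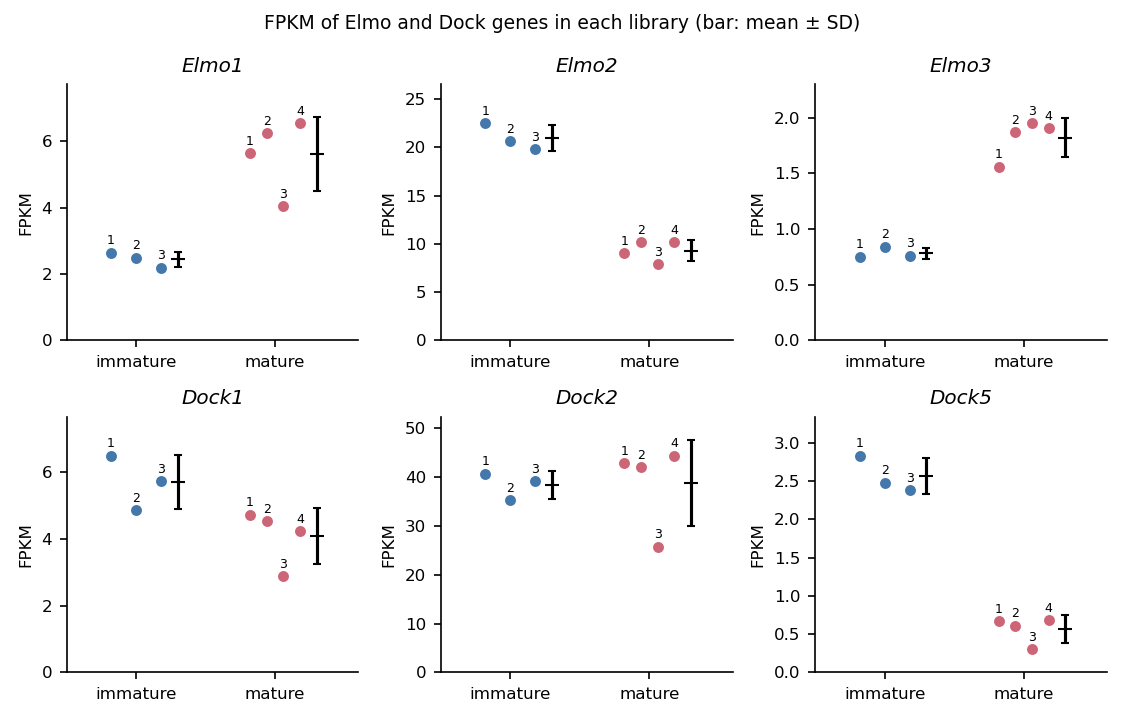
FPKM (vertical axes, from 0) of Elmo1, Elmo2, Elmo3, Dock1, Dock2 and Dock5 in each immature (blue) and mature (red) library, with dots numbered by replicate and bars showing the mean ± SD of 3 or 4 libraries. Elmo1 and Elmo3 are higher and Elmo2 and Dock5 lower in mature libraries, Dock2 overlaps, and mature replicate 3 is the lowest mature library for Elmo1, Elmo2, Dock1, Dock2 and Dock5.

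Among the integrin subunits that receive Mfge8, Itgb5 fell by 1.68 on the log2 scale (SE 0.08, edgeR adjusted p = 1.14e-06). Itgb3 had a log2 fold change of 0.68 (SE 0.15, edgeR adjusted p = 0.00621) and Itgav one of 0.36 (SE 0.13, edgeR adjusted p = 0.0481). Neither of the latter reached the fold criterion.

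Mature replicate 3 stood apart from the other mature libraries. Its log ratio to the group declined with transcript length across 17436 genes (Spearman's rho -0.367, against 0.198, 0.277 and 0.178 for mature replicates 1, 2 and 4). Its CPM was 0.676 to 0.862 times the mean of the other mature libraries in Axl, Mertk, Tyro3, Pros1, Elmo1 and Dock1, 1.06 times in Gas6 and 1.31 times in Mfge8. Without it, the log2 fold change was -1.98 for Axl, -1.44 for Mertk, -1.17 for Pros1 and 1.22 for Elmo1, so these 4 passed both criteria with or without that library.

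Cell type markers differed between the groups as well. The summed CPM of 10 dendritic cell genes was 2861 to 3085 in immature and 13745 to 16449 in mature libraries. Of these genes, 8 of 10 passed both criteria as higher, against 13.2% of all tested genes. Most of that sum came from Ccl22 (917 and 8879 CPM on average) and Ccr7 (202 and 2481 CPM). Itgax, which encodes CD11c, went the other way, with a log2 fold change of -0.41 (SE 0.11, edgeR adjusted p = 0.0124). The summed CPM of 12 macrophage genes was 13658 to 14283 and 1575 to 2156. Of these, 9 of 11 tested genes passed both criteria as lower, among them Csf1r, Adgre1 and Mrc1, against 9.95% of all tested genes. Most of that sum came from Lyz2 (11932 and 1442 CPM on average). Marco (log2 fold change 0.63, SE 0.34, edgeR adjusted p = 0.165) and Cd163 (-0.57, SE 0.33, edgeR adjusted p = 0.186) did not pass. The marker genes named here were picked after their values were seen. Axl and Mertk are themselves known as macrophage genes, and the part of this difference in the members' values was not tested.

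Heart muscle genes were a further difference. All 10 on the list passed both criteria as higher. Their summed CPM was 5.93 to 6.37 in immature libraries, 26.9 in mature replicate 1 and 720 to 848 in mature replicates 2 to 4. Tnni3 made up most of the sum in mature replicate 1, at 23.98 CPM against 3.17 to 3.83 CPM in immature libraries. The other heart muscle genes had at most 0.758 CPM in mature replicate 1 (Tnnt2). Ckm, Nppa and Myh6 were not above the immature libraries there. With mature replicate 1 as the only mature library, assumed to vary like the immature ones, the log2 fold change was -1.97 for Axl, -1.53 for Mertk, -1.40 for Pros1, -1.14 for Gas6, -0.69 for Mfge8 and 1.10 for Elmo1. In that fit Tyro3 (-0.34, edgeR adjusted p = 0.184) and Dock1 (-0.38, edgeR adjusted p = 0.0769) missed an adjusted p of 0.05.

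Other cell types were scarce or moved less. Summed CPM in immature and mature libraries was 1.53 to 3.16 and 1.03 to 2.17 for neutrophil genes, 0.375 to 0.773 and 0.768 to 1.21 for mast cell and basophil genes, and 2.59 to 2.86 and 4.11 to 6.47 for lymphocyte genes. It was 69.9 to 77.3 and 59.2 to 69.5 for epithelial genes, 12.7 to 21.3 and 24.9 to 32.6 for fibroblast genes, and 35.9 to 37.0 and 15.5 to 33.0 for endothelial genes. Most of the epithelial sum came from Cdh1 (55.2 and 51.5 CPM on average). Most of the endothelial sum came from Pecam1 (27.2 and 17.7 CPM on average). Cd8a (1.09 and 3.09 CPM on average) and Epcam (0.268 and 1.28 CPM) passed both criteria as higher, and S100a8 (1.81 and 0.722 CPM) as lower. Of the fibroblast and endothelial genes, 3 of 6 and 3 of 5 passed both criteria as higher, against 13.2% of all tested genes. The fibroblast and endothelial calls rested on mature replicates 2 to 4, as with most heart muscle genes. Dcn, for example, had 0.561 CPM in mature replicate 1 and 8.08 to 8.68 CPM in the others. Tie1 had 0.515 CPM against 1.86, 2.23 and 1.503 CPM.

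Around the 9 genes, 110 other genes of apoptotic cell uptake were listed by role, of which 105 were tested. Of these, 45 passed both criteria (42.9%, against 23.1% of all tested genes), 10 higher and 35 lower in mature cells, and their median log2 fold change was -0.45, against 0.055 over all tested genes. The lists were chosen with earlier results of these data known, so here and below such shares are set side by side as a description only.

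Among 18 tested phosphatidylserine and engulfment receptors other than the members, 8 fell and 2 rose, with a median log2 fold change of -1.14. The share past both criteria was 55.6%, against 23.1% of all tested genes. The largest falls were those of the lipid-sensing CD300 receptors Cd300lb (-2.61, SE 0.09, edgeR adjusted p = 3.04e-07) and Cd300ld (-2.28, SE 0.12, edgeR adjusted p = 1.78e-06) and of the scavenger receptor Stab1 (-2.47, SE 0.09, edgeR adjusted p = 3.83e-07), which binds phosphatidylserine. Ager, the receptor RAGE, rose by 1.40 (SE 0.27, edgeR adjusted p = 0.00261) from a low level of 0.753 FPKM. Timd2, the TIM family gene that also rose, had 0 counts in all immature libraries and 1.02, 2.63, 1.38 and 1.52 CPM in the mature ones, so no fold is given for it, and it was named after its values were seen.

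Of 12 other bridging and opsonizing molecules tested, 7 fell and 2 rose (median -1.24), a share of 75% against 23.1% of all tested genes. Thrombospondin-1 (Thbs1), which links dying cells to Cd36, fell by 2.83 on the log2 scale (SE 0.15, edgeR adjusted p = 1.47e-06). The C1q chains C1qb (-2.79, SE 0.15, edgeR adjusted p = 1.63e-06) and C1qc (-2.65, SE 0.15, edgeR adjusted p = 1.95e-06), which opsonize corpses for complement, fell with it. The pentraxin Ptx3 rose by 1.33 (SE 0.27, edgeR adjusted p = 0.00353).

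Of 22 other engulfment signaling genes tested, 4 fell (Arhgap25, Dock5, Elmo2 and Trio) and 1 rose (Elmo3), a share of 22.7% next to the 23.1% of all genes, with a median of -0.14. Trio, an exchange factor acting on RhoG and Rac, fell by 1.27 (SE 0.21, edgeR adjusted p = 0.00135), and Arhgap25, which switches Rac off, by 1.08 (SE 0.09, edgeR adjusted p = 2.45e-05).

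Genes of find-me and do-not-eat-me signals moved in both directions. Cd200, whose protein restrains myeloid cells, rose by 4.33 on the log2 scale (SE 0.13, edgeR adjusted p = 1.82e-07), while its receptor gene Cd200r1 fell by 2.53 (SE 0.08, edgeR adjusted p = 2.64e-07). Cx3cl1, a chemokine that attracts phagocytes, rose by 3.46 (SE 0.09, edgeR adjusted p = 1.28e-07), and Gpr132, a lysolipid receptor, by 2.24 (SE 0.09, edgeR adjusted p = 4.69e-07). P2ry2, which senses ATP from dying cells, fell by 1.86 (SE 0.17, edgeR adjusted p = 3.63e-05), and the do-not-eat-me gene Cd24a by 1.52 (SE 0.09, edgeR adjusted p = 2.59e-06). Of 15 tested, 3 rose and 4 fell (46.7%, against 23.1% of all tested genes), with a median of -0.45.

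Genes that modify TAM proteins gave 3 falls and no rise among 7 tested (median -0.68), a share of 42.9% against 23.1% of all tested genes. Adam10, a protease able to shed TAM ectodomains, fell by 1.65 (SE 0.17, edgeR adjusted p = 6.13e-05), the proprotein convertase Furin by 1.33 (SE 0.09, edgeR adjusted p = 4.38e-06), and Aifm2, which reduces vitamin K, by 1.31 (SE 0.09, edgeR adjusted p = 7.55e-06).

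Of 10 tested nuclear receptors and factors tied to uptake genes, 5 fell and none rose (median -1.11), a share of 50% against 23.1% of all tested genes. Pparg, a lipid-sensing nuclear receptor, fell by 2.47 (SE 0.14, edgeR adjusted p = 2.37e-06) and its partner Rxra by 1.87 (SE 0.09, edgeR adjusted p = 1.14e-06). The myeloid factor Cebpb (-2.10, SE 0.19, edgeR adjusted p = 2.98e-05) and the macrophage factor Maf (-1.33, SE 0.28, edgeR adjusted p = 0.00462) were lower too.

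Genes of phagosome maturation and corpse digestion moved in both directions, with 4 falls and 2 rises past both criteria among 21 tested. That share of 28.6% was near the 23.1% of all tested genes. An adjusted p under 0.05 was met by 17 of the 21, against 46.1% of all tested genes, and 9 log2 fold changes were positive and 12 negative, with a median of -0.064. Cybb, the NADPH oxidase subunit of phagosomes, fell by 2.38 (SE 0.14, edgeR adjusted p = 2.46e-06), the lysosomal membrane gene Lamp2 by 1.54 (SE 0.07, edgeR adjusted p = 9.18e-07) and the autophagy gene Atg7 fell by 1.41 (SE 0.08, edgeR adjusted p = 1.58e-06). Uvrag, a subunit of a lipid kinase complex of endosomes, rose by 1.38 (SE 0.11, edgeR adjusted p = 1.62e-05).

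**Figure D5:**
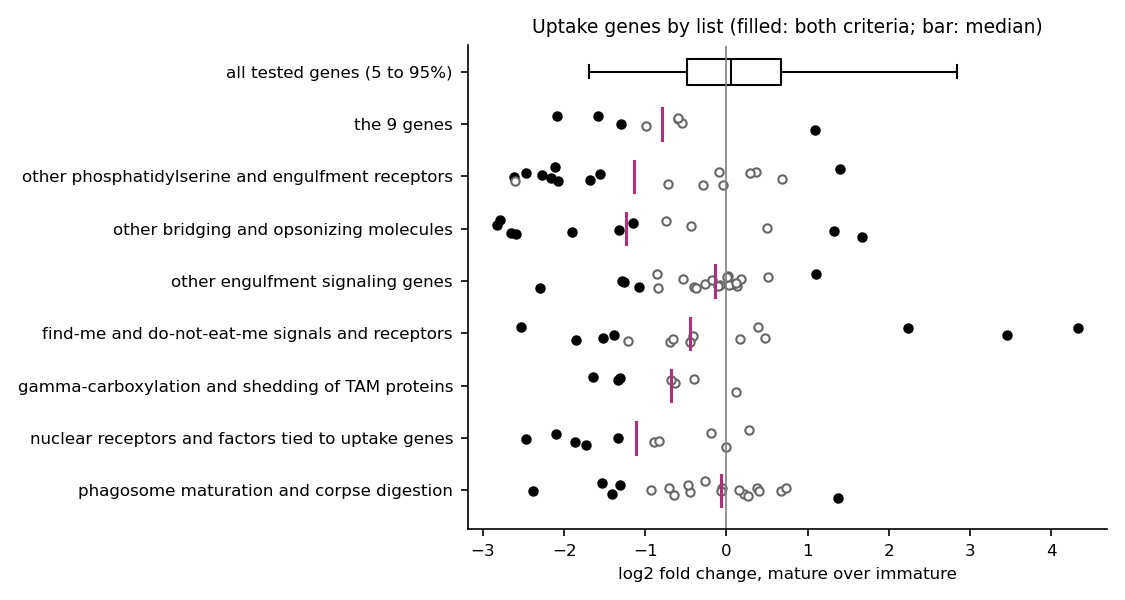
edgeR log2 fold change of mature over immature (horizontal axis) for the tested genes of each list, filled where both criteria were passed, with a bar at the list's median. The box above holds all tested genes (quartiles, with whiskers from the 5th to the 95th percentile). Timd2 and Dnase1l3, close to 0 counts in immature cells, are not drawn. Medians lie near -1 for the receptor, bridging and nuclear receptor lists, and Cd200 and Cx3cl1 lie farthest to the right.

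The genes whose log2 CPM followed the TAM receptors most closely over the 7 libraries were picked by Pearson's r among 11321 expressed genes, as a description. For Axl they were 5031439G07Rik, Tmem229b and Socs6 (r = 0.9999 each). For Mertk they were Stxbp5 (0.9994), Sidt2 (0.9992) and Atp6v1a (0.9990), and for Tyro3 they were Gm12960 (0.9952), Pura (0.9914) and Mtmr2 (0.9910). The 7 libraries fall into 2 groups, so that any gene lower in mature cells and steady within the groups scores high.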

How the data were processed

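RNA of 3 immature and 4 mature BMDC libraries was analysed, grouped by the stage in the labels. The deposited table holds unnormalized counts of each gene and the authors' FPKM, in which counts are divided by gene length and library size. Per the labels, libraries were poly(A)-selected and marked by strand, and the processing notes name cutadapt 1.9, HISAT2 2.2.1, StringTie 2.1.6, DESeq2, edgeR and the build mm9, with no roles. The coordinates of the deposited table, however, matched GRCm38 (GENCODE M21) for 24940 of 28666 genes and 7 of the 9 members (Mfge8 and Dock1 differed only in their end). Whether counting used the strand is not given in the sources used here. Among counts of 1 to 40, 30.3% were multiples of 4 where an even spread gives 25%, so that 1 fragment may stand for more than 1 count.

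Counts were tested in R 4.3.3 with edgeR 4.0.16 (filterByExpr, TMM, quasi-likelihood F-test over all 7 libraries, Benjamini-Hochberg adjustment). The SE is the log2 fold change divided by the square root of F. FPKM served only to compare levels between genes and in 2 alternatives. Members, gene lists and marker lists were chosen with earlier results of these data known. Text names all members, from each list at most 3 largest rises and 3 largest falls among genes past both criteria with a mean FPKM of at least 1 in the higher group (all such genes in lists with 5 or fewer), and the 3 genes most like each TAM receptor; other genes, markers included, were named after their values were seen, and 1 gene that the rule names is not reported here. Alternatives were DESeq2 1.42.0, limma 3.58.1 on log2(FPKM + 1) and log2(FPKM + 0.1), other scalings and filters, leaving out each library, mature replicate 1 as the only mature library, and a replicate block. Counts divided by 4 and an offset for transcript length were added after seeing the data. On simulated counts, edgeR at an adjusted p under 0.05 alone found 97 of 100 genes changed 4-fold and 63 of 100 changed 2-fold, with 12 false calls among 16948 genes. The fold criterion was not applied there, and far fewer genes were changed than differ in these data. These are therefore not rates for genes past both criteria. No libraries were alike within sampling noise. Counting floors cover counting error only.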

Additional observations from a re-analysis of the deposited data

Results flagged for a closer look

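Among 48 values (the CPM of tested members and other named genes, and the Axl to Mertk ratio), 4 had a mature library set off from the other mature ones by Dixon's ratio of its gap to the group's range (critical value 0.829), where chance alone gives about 1 in 20, or 2.4. None was a member. The CPM of Ager was highest in mature replicate 3 (ratio 0.875) and that of Trio lowest in the same library (0.862). The CPM of Cd24a was lowest in mature replicate 2 (0.928) and that of Alox15 highest in mature replicate 4 (0.838).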

How the results depend on the processing

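All 8 tested members kept their direction in 18 of 18 alternatives. Axl (log2 fold change -2.20 to -1.96), Mertk (-1.72 to -1.30) and Pros1 (-1.44 to -1.02) passed both criteria in each of the 18, Elmo1 (0.91 to 1.22) in 16 and Gas6 (-1.18 to -0.70) in 5, while Tyro3 (-0.70 to -0.25), Mfge8 (-0.69 to -0.44) and Dock1 (-0.72 to -0.38) did so in none. Besides leaving out mature replicate 2 or immature replicates 1 or 3, Gas6 passed with mature replicate 1 as the only mature library (-1.14) and with the length offset (-1.15). An adjusted p under 0.05 was kept by Tyro3 in 14 and by Dock1 in 12 of the 18. Over the alternatives, 3 to 5 members, 36 to 48 genes of the uptake lists (main 45) and 10 to 16 genes of the GO lists (main 14) passed both criteria. Over all genes, 4037 passed in the main fit, 1768 with limma on log2(FPKM + 1), 2561 with limma on log2(FPKM + 0.1), 2665 with edgeR after a filter on FPKM, and 3646 to 4052 on leaving out each library. The limma fits and the FPKM filter tested 11758 genes against 17461. The median log2 fold change over all genes moved from 0.055 to 0.16 without TMM, 0.16 with upper-quartile factors and -0.099 with the length offset, under which 47.9% of calls were higher in mature cells against 57.0% in the main fit. Over 27808 genes without a filter on low counts the median was 0.17 with edgeR and 0.18 with DESeq2.

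Replicate numbers are shared between the groups, but same-numbered libraries did not deviate together (r of 0.0285, -0.00114 and 0.0144 for numbers 1 to 3), so they were not taken as pairs. With the replicate number as a block, 4 members, 3616 genes, 44 genes of the uptake lists and 14 of the GO lists passed both criteria, and the adjusted p of Tyro3 was 0.0725.

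Timd4 was too low to compare. Treatment, sorting markers and the origin of each library are not in the labels, and the marker lists differ between the groups, so stage and cell makeup cannot be told apart here.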

Other observations

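The table's own GO annotation gave another view of uptake, with genes partly shared with the lists above and the 9 members left out. Of 17 genes annotated with apoptotic cell clearance, all tested, 6 fell and none rose in mature cells, with a median log2 fold change of -0.79. The share past both criteria was 35.3%, against 23.1% of all tested genes. The largest falls were those of the chemokine receptor Ccr2 (-3.40, SE 0.17, edgeR adjusted p = 1.25e-06), the scavenger receptor Cd36 (-2.08, SE 0.11, edgeR adjusted p = 1.78e-06) and the lipoxygenase Alox15 (-1.68, SE 0.20, edgeR adjusted p = 0.000193).

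Of 71 genes annotated with phagocytosis, engulfment, 20 were tested, of which 7 fell and 2 rose (median -0.34), a share of 45% against 23.1% of all tested genes. The high-affinity IgG receptor Fcgr1 (-2.74, SE 0.10, edgeR adjusted p = 3.76e-07), the scavenger receptor Msr1 (-2.36, SE 0.11, edgeR adjusted p = 9.73e-07) and the Fc receptor gamma chain Fcer1g (-1.50, SE 0.17, edgeR adjusted p = 0.000116) fell most among the genes of sufficient level. Treml4, a receptor that binds dead cells (1.35, SE 0.32, edgeR adjusted p = 0.00759), and the Rac GTPase-activating protein gene Sh3bp1 (1.12, SE 0.08, edgeR adjusted p = 6.11e-06) rose.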
